A study of Homo sapiens with 6 samples.

Results

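Genes of mitosis, the spindle checkpoint and condensin were followed in MCF10A cells, a non-tumorigenic human mammary epithelial line, after stable transfection with an shRNA against FRY. The set was a list of 42 gene symbols, and kinesin motors were left out of it apart from CENPE, a kinetochore protein that is itself a kinesin. All 42 genes were measured, among 19775 genes that had at least 1 probe set naming them alone. Control cells carried a non-targeting shRNA and shFRY cells the shRNA against FRY, a gene for a large microtubule-binding protein that works with NDR kinases. Each group had 3 samples, which varied in passage number, on 1-colour arrays that took biotin-labelled cDNA made from 40 ng of total RNA. Both groups had gone through puromycin selection and grew as monolayers in mammary epithelial medium with epidermal growth factor, insulin, hydrocortisone and pituitary extract, up to 70% confluence. Each construct was represented by 1 clone, so an effect of the shRNA and a difference between clones cannot be told apart, and p-values measure only the spread between samples of a clone. Per the labels, the shFRY clone was chosen for an FRY level some 60% below normal.

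As background, CDK1 bound to cyclin B drives cells from G2 into mitosis, and Polo and Aurora kinases then build the spindle. The spindle checkpoint holds sister chromatids together until every kinetochore is attached, after which CDC20 and the anaphase-promoting complex destroy cyclin B and securin. Condensin and topoisomerase II shape the chromosomes, and the midzone and cleavage furrow divide the cell. Most of these genes are transcribed late in the cell cycle under the MuvB complex with B-MYB and FOXM1, and growing epithelial cultures express them strongly.

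The deposited signals are on the log2 scale, and sample medians lay between 3.02 and 3.06. FRY was lower at all 4 of its probe sets and passed at 1 of them, 204072_s_at, where the samples read 4.23, 3.55 and 3.81 in control and 2.88, 3.31 and 3.14 in shFRY (log2 difference -0.75, SE 0.19, limma adjusted p = 0.0223). That call was lost without control sample 1 or 3 or shFRY sample 1 or 3, at limma adjusted p-values from 0.0502 to 0.0712. At the brightest FRY probe set, 214319_at, the groups overlapped and the difference did not pass (-0.49, limma adjusted p = 0.203). FRY signals were low, with group means from 2.62 to 5.18 over its probe sets, against a median of 3.04 for all probe sets. The beta-actin 3' minus 5' difference, a measure of RNA length, was 2.33, 2.52 and 2.71 in control and 2.88, 2.89 and 2.84 in shFRY, with no overlap (two-sided exact permutation p = 0.1, and no smaller p is possible with 3 samples a group). The same measure for GAPDH overlapped between the groups, with means of -0.089 in control and -0.073 in shFRY (difference 0.016, two-sided exact permutation p = 0.4). Of 6 measured markers of mammary epithelium, all had means at or above the percentile 90.7 of genes. Of these, 5 were higher in shFRY, as were 13.7% of all genes. They ran from CDH1 (0.37) to KRT14 (2.92 on the log2 scale), and KRT5 did not pass (0.083). There were 20 measured markers of other cell types (fibroblast, immune, endothelial and adipocyte genes). Of these, DCN (-2.79), LUM (-3.94), PTPRC (-1.06) and KDR (-2.45) were lower in shFRY and TEK (1.85) was higher. The mean log2 signal of these 20 genes was between 3.08 and 3.20 in the control samples and between 2.63 and 2.79 in the shFRY samples. In shFRY means they ranged from 1.18 (ADIPOQ) to 7.40 (PECAM1). The part of these markers in the results was not tested.

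Of the 42 mitosis genes, 24 (57.1%) fell in shFRY cells and 0 rose at a limma adjusted p of 0.05, over a background in which 16.0% of all genes fell and 13.7% rose. The median log2 difference of the 42 genes was -0.44, against 0.027 for all 19775 genes. The difference was negative for 40 of the 42 genes, and CENPE and SMC4 were the exceptions. At an unadjusted p of 0.05, 29 members were lower and 1, CENPE, was higher, where 20.6% of all genes were lower and 19.1% higher. The members were bright genes, with means between the percentiles 54.1 and 98.2 of all genes, and bright genes passed more often: among the 11859 genes with means above the median of all probe sets, 27.9% fell, and 26 of the 42 members did. In bulk RNA, fewer dividing cells and less RNA per dividing cell cannot be told apart.

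Cyclin A2 (CCNA2) and the spindle protein gene DLGAP5 were the members whose brightest probe set fell by at least 2-fold. A fall of this size was thus found in 2 of the 42 members and in 4.08% of all genes, shares that were near each other. The other CCNA2 probe set passed as lower but fell by less than 2-fold (log2 difference -0.78). At 31 of the 42 genes the highest shFRY sample was under the lowest control sample, which was so for 22.4% of all genes. The reverse held at CENPE alone, and at 21.9% of all genes. The groups overlapped at 10 members.

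**Figure D1:**
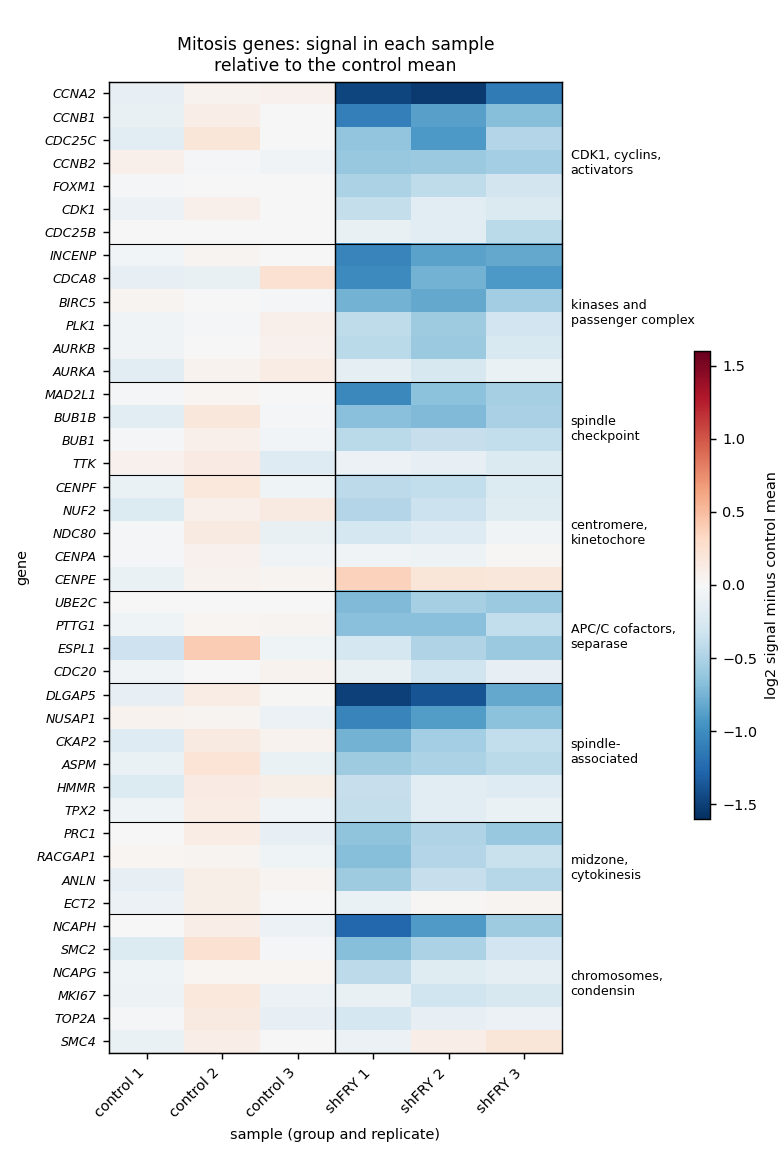
Signal of each of the 42 genes (rows, by role) in each of the 6 samples (columns), as log2 signal minus the mean of the 3 control samples, blue for lower and red for higher. The shFRY columns are blue at most genes and palest at the centromere and kinetochore genes, where the median log2 difference was -0.18.

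**Figure D2:**
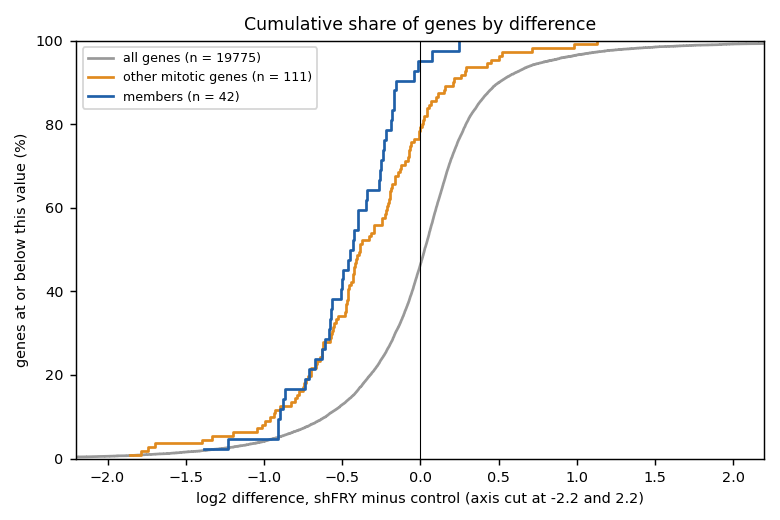
Cumulative share of genes (percent) at or below each log2 difference of shFRY minus control, for the 42 members, 111 other mitotic genes and all 19775 genes. Over most of the range the curves of both mitotic sets lie to the left of that of all genes, with medians of -0.44, -0.39 and 0.027.

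Promoter sequence was examined because most members moved in one direction and because late cell cycle genes are known to share a cell cycle homology region (CHR), which binds MuvB, and CCAAT boxes, which bind NF-Y. The 250 bases before the annotated start of each gene, from RefSeq on GRCh38.p14, were searched on both strands for TTTGAA or TTCGAA (CHR) and for CCAAT. Entries matched 35 of the 42 symbols. Those not matched were AURKA, BIRC5, FOXM1, RACGAP1, TPX2, TTK and UBE2C. The 120 bases up to the start are shown for the 3 genes with the largest falls whose window holds a CHR match, and for ECT2, the gene that moved least. Capitals mark CHR and CCAAT matches.
DLGAP5: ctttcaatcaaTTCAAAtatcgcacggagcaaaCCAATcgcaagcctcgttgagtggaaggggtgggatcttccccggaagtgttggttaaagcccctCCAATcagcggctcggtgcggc
INCENP: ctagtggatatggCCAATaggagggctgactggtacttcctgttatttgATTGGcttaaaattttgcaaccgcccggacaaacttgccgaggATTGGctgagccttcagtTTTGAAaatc
CDCA8: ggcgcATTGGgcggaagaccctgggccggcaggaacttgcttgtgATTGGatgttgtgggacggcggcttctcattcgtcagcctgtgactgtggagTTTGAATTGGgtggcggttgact
ECT2: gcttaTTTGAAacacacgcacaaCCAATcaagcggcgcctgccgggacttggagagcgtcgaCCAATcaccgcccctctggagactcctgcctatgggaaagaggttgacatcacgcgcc
These stretches are chr14:55191586-55191705 (minus strand), chr11:62123891-62124010, chr1:37692396-37692515 and chr3:172750606-172750725 (plus strand), each directly upstream of its gene.

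The INCENP and CDCA8 windows share a layout, with several CCAAT matches on the opposite strand (ATTGG) and TTTGAA close to the start, from 10 to 5 bases before it in INCENP and from 23 to 18 in CDCA8. INCENP also has a CCAAT match as written, from 107 to 103. In CDCA8 the last base of TTTGAA is also the first of an ATTGG match. The CHR matches lie farther from the start in DLGAP5. They are at 109 to 104 (TTCAAA, the other strand of TTTGAA) and, outside the printed stretch, at 138 to 133. ECT2 holds TTTGAA at 115 to 110. A CCAAT match of DLGAP5 lies close to the start, at 22 to 18.

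A CHR match was found in 21 of the 35 members with a window (60.0%), against 15.3% of the 15384 genes tested that had one. Over windows rather than genes, 23 of 47 member windows (48.9%) and 14.3% of all 35116 windows held it. Within the 60 bases next to the start, 15 of the 35 members (42.9%) and 2.96% of the genes tested had a match. CCAAT was present in 26 of 35 members (74.3%) and in 39.7% of genes tested, and both kinds of match in 17 (48.6%) and 5.88%. An E2F match (TTTGGCGC or TTTCCCGC) was found in 2 of 35 members, CENPA and NUSAP1, and in 3.15% of the genes tested. Of the members with a window, 10 of 20 that fell and 11 of 15 that did not pass held the CHR letters. These matches are descriptions of letters in a window, and no binding was measured.

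Of 7 genes for CDK1, its cyclins and its activators, 5 fell, the 3 cyclins among them, and CDK1 did not pass. They had a median log2 difference of -0.58. Counts of this role and of those below stand beside shares of 16.0% of all genes and 27.9% of bright genes that fell. CCNA2, the cyclin of S and G2 phase, read 9.99, 10.17 and 10.19 in the control samples and 8.64, 8.58 and 8.98 in the shFRY samples. The groups were far apart relative to their spread, and the signal fell by 61.6% (log2 difference -1.38, SE 0.13, limma adjusted p = 0.000175). At the other CCNA2 probe set, 213226_at, the log2 difference was -0.78 (limma adjusted p = 0.00793). CCNB1, which encodes the main mitotic cyclin, was at 9.94, 10.16 and 10.07 in control and at 8.97, 9.19 and 9.37 in shFRY. It fell by 45.6% with no overlap (-0.88, SE 0.13, limma adjusted p = 0.0014). The second B-type cyclin gene, CCNB2, fell by 0.58 on the log2 scale, and CDC25C, a phosphatase that activates CDK1, fell by 0.67. FOXM1, a transcription factor of late cell cycle genes, fell by 0.40, a call lost without control sample 2 or 3 (limma adjusted p = 0.0518 and 0.0527).

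CDK1 itself did not pass, with a log2 difference of -0.27 (limma adjusted p = 0.0886). The phosphatase gene CDC25B moved least in this group. Its samples were at 9.34, 9.36 and 9.35 in control and at 9.23, 9.18 and 8.92 in shFRY, all lower but by a small step (-0.24, 95% interval -0.49 to 0.01, limma adjusted p = 0.145). Intervals here and below are not adjusted for the number of genes.

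The chromosomal passenger complex, which corrects faulty attachments and steers cytokinesis, was lower in all of its subunits. INCENP, its scaffold, read 5.96, 6.04 and 6.0 in control and 4.94, 5.14 and 5.18 in shFRY. It fell by 46.9% (-0.91, SE 0.10, limma adjusted p = 0.000395), and the samples of a group stood within a narrow range of each other. CDCA8, which encodes borealin, read 6.32, 6.33 and 6.69 in control against 5.42, 5.69 and 5.53 in shFRY (-0.90, SE 0.13, limma adjusted p = 0.00155). Survivin (BIRC5) fell by 0.71 on the log2 scale, and the kinase of the complex, AURKB, fell by 0.42.

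The other mitotic kinases differed in their calls. PLK1, which drives entry and spindle assembly, fell by 0.43. AURKA, the centrosomal Aurora kinase, did not pass: its control samples were at 10.33, 10.54 and 10.61 and its shFRY samples at 10.35, 10.24 and 10.39. These ranges overlapped (-0.17, 95% interval -0.42 to 0.09, limma adjusted p = 0.301). Over the 6 genes of kinases and passenger subunits, 5 fell and the median was -0.57. PLK1 and AURKB had limma adjusted p-values of 0.0177 and 0.0266. PLK1 missed the threshold without control sample 2 or 3 or shFRY sample 2 (limma adjusted p from 0.0508 to 0.0683). AURKB missed it without any single sample other than shFRY sample 3 (limma adjusted p from 0.0569 to 0.09).

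Of the 4 checkpoint genes, 3 fell and the median log2 difference was -0.51. MAD2L1 encodes MAD2, which binds and restrains CDC20. It stood at 9.80, 9.84 and 9.81 in control and at 8.79, 9.16 and 9.28 in shFRY (-0.74, SE 0.14, limma adjusted p = 0.00449). The control samples were almost equal and the shFRY samples more widely spread, with no overlap. BUB1B, the gene of the checkpoint protein BUBR1, read 8.40, 8.75 and 8.55 in control and 7.90, 7.87 and 8.05 in shFRY (-0.63, SE 0.12, limma adjusted p = 0.00512). Its relative BUB1 fell by 0.40, and did not pass without control sample 2 (limma adjusted p = 0.0551). TTK, the kinase at the top of the checkpoint, was at 5.44, 5.51 and 5.16 in control and at 5.27, 5.24 and 5.13 in shFRY. Its groups overlapped (-0.15, 95% interval -0.43 to 0.12, limma adjusted p = 0.383).

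None of the 5 centromere and kinetochore members passed, and their median log2 difference was -0.18. CENPA, the histone variant that marks centromeres, was flat at 4.70, 4.80 and 4.68 in control and 4.67, 4.65 and 4.74 in shFRY (-0.037, 95% interval -0.25 to 0.18, limma adjusted p = 0.806). Its direction was not fixed, since it changed sign after another quantile normalization (0.062). NDC80 and NUF2, partners in the complex that grips microtubules, differed by -0.18 and -0.34 with overlapping groups. CENPF, a large kinetochore and nuclear matrix protein gene, was lower in every shFRY sample by a small amount at its brightest probe set (-0.35, limma adjusted p = 0.0563). At a dimmer CENPF probe set, 209172_s_at, the groups overlapped with a difference of 0.088 (limma adjusted p = 0.644). CENPE, the kinetochore motor, went the other way: 7.41, 7.57 and 7.55 in control and 7.87, 7.70 and 7.69 in shFRY (0.24, SE 0.10, limma adjusted p = 0.118). It was higher in all 3 shFRY samples and did not pass. At an unadjusted p of 0.05 and at the brightest probe set of each gene, CENPF and NUF2 were lower and CENPE higher.

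Of 4 genes of the exit from mitosis, 2 (50%) fell, and 16.0% of all genes and 27.9% of bright genes did. The median was -0.51, and all 4 differences were negative. At an unadjusted p of 0.05, 3 of the 4 were lower, against 20.6% of all genes. UBE2C is the ubiquitin-conjugating enzyme of the anaphase-promoting complex. Its control samples were at 8.37, 8.36 and 8.36 and its shFRY samples at 7.66, 7.83 and 7.77, so the signal fell by 34.6% (-0.61, SE 0.09, limma adjusted p = 0.00181). PTTG1, the securin gene, was at 11.14, 11.24 and 11.27 in control and at 10.55, 10.55 and 10.82 in shFRY (-0.58, SE 0.11, limma adjusted p = 0.00555). Separase (ESPL1), which securin inhibits, differed by -0.45 with overlap and a wide spread in control (limma adjusted p = 0.109). CDC20, the activator of the complex, read 9.13, 9.19 and 9.25 in control and 9.08, 8.88 and 9.06 in shFRY. The shFRY samples were all lower, but by no more than a small step (-0.19, 95% interval -0.42 to 0.05, limma adjusted p = 0.214).

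Among 6 genes of spindle-associated proteins 4 fell, and the median was -0.53. DLGAP5 encodes HURP, which stabilises kinetochore fibres. Its control samples were at 8.96, 9.20 and 9.10 and its shFRY samples at 7.60, 7.70 and 8.27, so that shFRY sample 3 lay nearest to control. The signal fell by 57.4% (-1.23, SE 0.18, limma adjusted p = 0.00136). NUSAP1, a microtubule bundling protein gene, was at 10.49, 10.47 and 10.34 in control and at 9.38, 9.54 and 9.78 in shFRY (-0.87, SE 0.12, limma adjusted p = 0.00131). ASPM, a spindle pole protein gene, fell by 0.50, and CKAP2, which promotes microtubule growth at the spindle, fell by 0.56. The CKAP2 call was lost without control sample 2 or 3 (limma adjusted p = 0.0604 and 0.0556).

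TPX2, which activates Aurora A on the spindle, did not pass, as was so of AURKA. Its samples read 9.71, 9.90 and 9.73 in control and 9.40, 9.60 and 9.67 in shFRY (-0.22, 95% interval -0.48 to 0.04, limma adjusted p = 0.187). HMMR, a spindle and hyaluronan-binding protein gene, differed by -0.25 with overlap (limma adjusted p = 0.174).

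Of 4 genes of the midzone and cytokinesis, 3 fell and 1 hardly moved. PRC1, the protein that crosslinks antiparallel microtubules at the midzone, stood at 9.01, 9.12 and 8.86 in control and at 8.36, 8.52 and 8.39 in shFRY (-0.57, SE 0.11, limma adjusted p = 0.00476). RACGAP1, the GTPase-activating subunit of centralspindlin, was at 10.10, 10.12 and 10.00 in control and at 9.39, 9.61 and 9.72 in shFRY (-0.51, SE 0.11, limma adjusted p = 0.0111). The gene of the furrow scaffold anillin, ANLN, fell by 0.46, and missed the threshold without control sample 2 or 3 (limma adjusted p = 0.0534 and 0.0514). ECT2 is the exchange factor that RACGAP1 recruits to activate RhoA. Its control samples read 9.51, 9.70 and 9.59 and its shFRY samples 9.49, 9.62 and 9.64 (-0.016, 95% interval -0.25 to 0.22, limma adjusted p = 0.927). The groups lay on top of each other, and all 3 ECT2 probe sets were within 0.10 of no difference. Its sign changed under median centring (0.012).

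Of the 6 condensin and chromosome genes, 2 (33.3%) fell and the median was -0.24, where 16.0% of all genes and 27.9% of bright genes fell. NCAPH, the kleisin subunit of condensin I, read 7.14, 7.25 and 7.05 in control and 5.89, 6.24 and 6.58 in shFRY. It fell by 46.8% (-0.91, SE 0.17, limma adjusted p = 0.00479), with a wide spread in shFRY. The ATPase subunit gene SMC2 was at 6.64, 7.10 and 6.82 in control and at 6.17, 6.35 and 6.55 in shFRY (-0.50, SE 0.15, limma adjusted p = 0.0384). Leaving out any sample other than control sample 1 or shFRY sample 3 ended the SMC2 call (limma adjusted p from 0.0861 to 0.123). SMC4, the other ATPase of the same complex, was at 10.26, 10.46 and 10.35 in control and at 10.27, 10.46 and 10.56 in shFRY, with overlap (0.073, 95% interval -0.19 to 0.33, limma adjusted p = 0.682).

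The remaining genes of this group did not pass at the probe set used for them. NCAPG, another condensin I subunit, differed by -0.26 (limma adjusted p = 0.113). Topoisomerase II alpha (TOP2A) differed by -0.17 with overlap, and the proliferation marker gene MKI67, which encodes Ki-67, by -0.23 without overlap (limma adjusted p = 0.307 and 0.176). Whether members of one complex differed from each other was not tested.

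**Figure D3:**
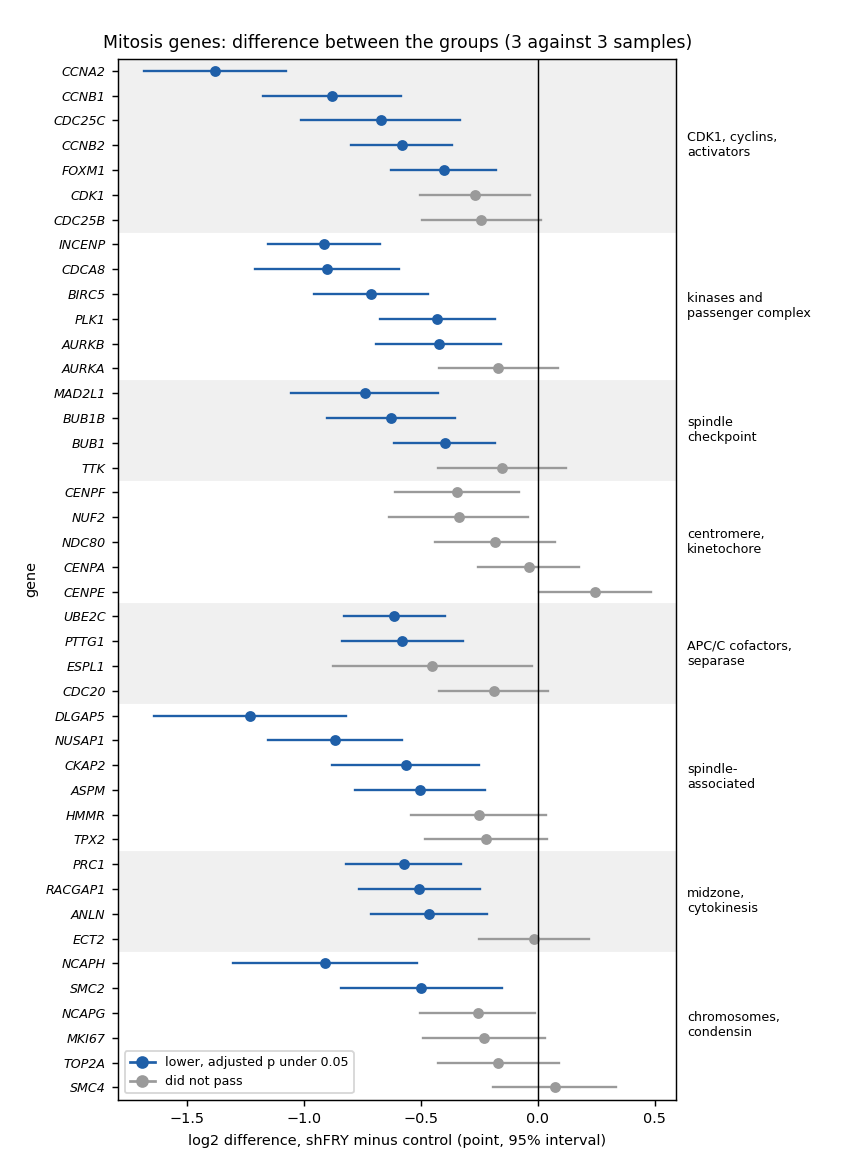
Log2 difference of shFRY minus control for the 42 genes, ordered by role, with 95% intervals from limma (3 against 3 samples). Blue marks the 24 genes that passed as lower and grey the 18 that did not pass. CCNA2 (-1.38) and DLGAP5 (-1.23) lie farthest to the left, and no interval of a blue gene reaches 0.

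The 42 genes had 84 probe sets in all, and 46 of them (54.8%) passed as lower and 0 as higher, while 12.2% of all 54613 probe sets passed as lower and 10.9% as higher. At an unadjusted p of 0.05, 57 were lower and 0 higher, against 17.6% and 17.1% of all probe sets. Of the 23 genes with several probe sets, 9 passed at every one, 9 at some and 5 at none. BIRC5 passed at all 4 of its probe sets, with differences from -1.06 to -0.57. CCNB1, CDC25C, MAD2L1 and NUSAP1 also passed at every probe set.

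For 5 genes that did not pass in the comparison of genes, a dimmer probe set did. MKI67 had the widest range of them: its brightest probe set, 212022_s_at, differed by -0.23, whereas 212020_s_at differed by -0.95 (limma adjusted p = 0.000954) and 212023_s_at by -0.90 (limma adjusted p = 0.00856). The groups were apart, shFRY below control, at each of the 4 MKI67 probe sets. For ESPL1, 38158_at fell by 0.79, while the probe set used differed by -0.45. CDK1 (210559_s_at, -0.46), AURKA (204092_s_at, -0.35) and HMMR (209709_s_at, -0.39) each had 1 probe set that fell. With these, 29 of the 42 genes fell at 1 probe set or more, as did 18.7% of all genes. Among genes with several probe sets this was so of 18 of 23 members and of 25.0% of all genes. CKAP2, AURKB, BUB1 and CCNB2 were the reverse case, called at the brightest probe set but not at every other one. Of the 24 members called, 20 passed at every probe set, counting members with 1 probe set. The dim probe sets of CKAP2 were at -0.048 and 0.089. By the mean of its probe sets CKAP2 differed by -0.17 and did not pass (limma adjusted p = 0.218).

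**Figure D4:**
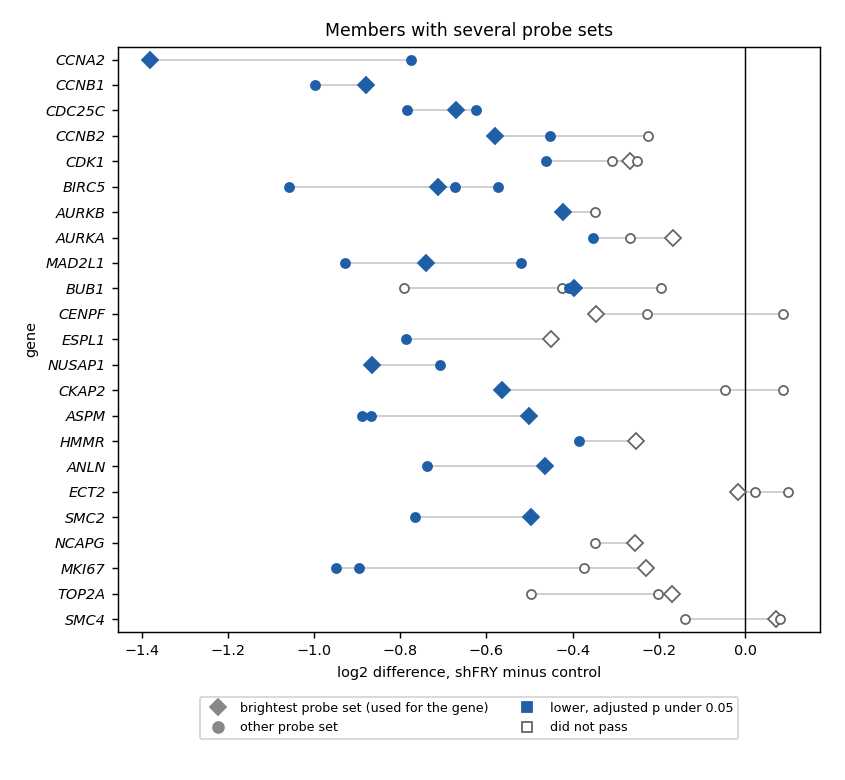
Log2 difference of shFRY minus control at every probe set of the 23 genes with several. Diamonds are the brightest probe set, which stands for the gene, circles the others, and filled symbols passed as lower. MKI67 spans -0.95 to -0.23, and the 3 ECT2 probe sets lie around 0.

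On average shFRY samples exceeded control by 0.35 in the beta-actin 3' minus 5' measure of RNA length, in the same samples in which these genes fell, and by 0.016 in the GAPDH measure, where the groups overlapped. With the beta-actin measure as a covariate, 2 of the 42 genes passed, CCNA2 (-1.50, SE 0.27, limma adjusted p = 0.028) and CDCA8 (-1.26, SE 0.22, limma adjusted p = 0.0287), against 2.43% of all genes passing as lower. All 24 genes that had fallen kept a negative difference. Their median went from -0.60 without the covariate to -0.64 with it, and their median SE from 0.12 to 0.23. CENPA and TTK changed sign, to 0.0028 and 0.089. The beta-actin measure did not overlap between the groups, so this fit cannot tell RNA length and group apart. A part of RNA length in these falls was not tested.

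**Figure D5:**
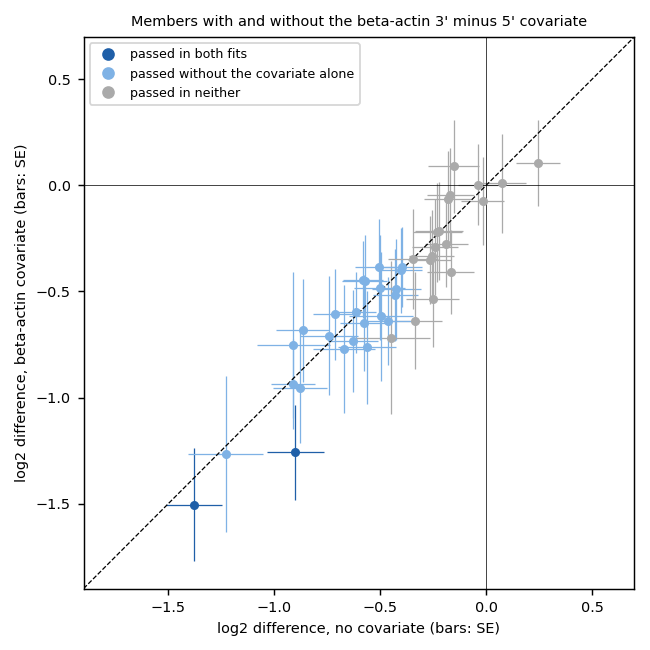
Log2 difference of each of the 42 genes without (x axis) and with (y axis) the beta-actin 3' minus 5' difference as a covariate, with SE as bars and the line of equal values dashed. Points follow the line, the vertical bars are the longer ones, and CCNA2 and CDCA8 are the genes that passed in both fits.

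Other genes of mitosis were taken as a list of 116 genes outside the 42 and without kinesins. Of the 111 that were measured, 55 (49.5%) fell and 7 (6.31%) rose, against 16.0% and 13.7% of all genes. Another 49 did not pass. The difference was negative for 88 of the 111, and the median log2 difference was -0.39. The genes not measured had no probe set naming them alone.

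Of 36 other checkpoint and kinetochore genes, 21 (58.3%) fell and 1 rose, where 16.0% of all genes and 27.9% of bright genes fell. SPC25, a subunit of the NDC80 complex, fell from 9.0 to 7.26 in the mean (-1.74, SE 0.19, limma adjusted p = 0.000314). CENPI, of the inner kinetochore, fell by 1.40 and passed at 2 of its 4 probe sets. SGO1, the shugoshin that protects centromeric cohesion, fell by 1.33 and passed at 1 of its 2 probe sets. MIS12, of the outer kinetochore, rose by 0.45. No test compared this list with the 5 kinetochore members, of which none passed.

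Of 17 other entry regulators, 6 (35.3%) fell and 1 rose, where 16.0% of all genes and 27.9% of bright genes fell. PKMYT1, a kinase that restrains CDK1, fell by 0.73, the phosphatase gene CDC25A by 0.70 (at 2 of 3 probe sets) and GTSE1 by 0.70. LIN37, a MuvB subunit, rose by 0.72 at 1 of its 2 probe sets. Of 14 measured genes for subunits and regulators of the anaphase-promoting complex, 4 (28.6%) fell and 0 rose. This share was near the 27.9% of bright genes that fell. At an unadjusted p of 0.05, 6 were lower and 1 higher. The largest falls were those of CDC26 (-0.47), the coactivator gene FZR1 (-0.46, at 1 of 4 probe sets) and the inhibitor gene FBXO5 (-0.39). In the test of single probe sets FBXO5 passed at 1 of 2, not at the one used here (limma adjusted p = 0.0549). Of 26 genes of spindle, centrosome and cytokinesis, 15 (57.7%) fell and 1 rose, where 16.0% of all genes and 27.9% of bright genes fell. FAM83D, which brings casein kinase to the spindle, fell by 1.79 and SPAG5 (astrin) by 0.99. The augmin subunit gene HAUS5 fell by 0.96, at 2 of 3 probe sets, while the microtubule polymerase gene CKAP5 rose by 0.50.

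Another list of 18 genes held cohesin, the remaining condensin subunits and the cell division genes CDCA2 and CDCA3. Of these, 9 (50%) fell, CDCA2 and CDCA3 among them, and 4 (22.2%) rose. Of all genes 16.0% fell and 13.7% rose. Among the 11859 bright genes 27.9% fell and 2552 rose, so the share of this list that rose was near that of bright genes. The condensin I subunit gene NCAPD2 fell by 0.80, next to NCAPH and SMC2 above. ESCO2, the acetyltransferase that locks cohesin in S phase, fell by 1.86 at its brightest probe set and passed at 2 of 4. CDCA3 fell by 1.70 (limma adjusted p = 0.00104). NIPBL, the cohesin loader gene, rose from 7.70 to 8.83 in the mean (1.13, SE 0.11, limma adjusted p = 0.000176) and passed at 4 of 5 probe sets. STAG2, a core cohesin subunit, rose by 0.98 at its brightest probe set and passed at all 3, from 0.63 to 0.98. WAPL, which releases cohesin, rose by 0.52 and passed at 3 of 4 probe sets. Of the cohesin ring genes, picked after their values were seen, SMC1A fell by 0.43 (limma adjusted p = 0.0211), while SMC3 and RAD21 differed by 0.021 and 0.040 and did not pass.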

How the data were processed

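Values came from 6 arrays, 3 per group, grouped by the sample titles. The authors deposited log2 values from RMA, as the submitters' processing notes name it, with no version. This method usually equalises the arrays, so a change shared by all genes cannot be seen, and it compresses differences of dim probe sets. Of 54675 probe sets, 62 were controls and 41091 had 1 gene symbol in the platform annotation, updated through Entrez IDs to RefSeq of GRCh38.p14 for 41037. Each gene was represented by its brightest such probe set by mean. Groups were compared with limma 3.58.1 in R 4.3.3 (lmFit, eBayes, no filter, 4 residual degrees of freedom), with Benjamini-Hochberg adjustment over 19775 genes, or over 54613 probe sets for single probe sets, at 0.05. The script was tested on simulated data.

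The genes and lists were chosen with earlier results of these data known. Every member is named. Values by sample are given for the 2 largest falls that passed and the smallest difference that did not in each of 8 roles, and CENPE was added after its values were seen. Of the other mitotic genes, up to 3 per list and direction are named. The number of arrays limits the precision. Same-numbered samples of the groups did not deviate together (r from -0.00427 to 0.0388), so the numbers were not treated as pairs. Alternatives were another centring, normalization, fit, filter and choice of probe sets, array weights, a replicate block, the beta-actin covariate and leaving out each sample.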

Additional observations from a re-analysis of the deposited data

How the results depend on the processing

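The counts of members and of other mitotic genes stayed within 1.5 times of those reported in each alternative except the beta-actin covariate. Members that fell numbered 24 under median centring, 26 after another quantile normalization, 28 with trend and robust options and 25 with array weights, and 17 to 25 when 1 sample was left out, with the lowest count without control sample 2. Members that rose were 0 throughout. With the covariate 2 members and 3 other mitotic genes fell, 1 other mitotic gene rose and 0 FRY probe sets passed. The replicate block gave 24 members as lower and 49 other mitotic genes, and 2 FRY probe sets. Leaving out 1 sample gave 0 to 2 FRY probe sets. Of the 24 members that fell, 17 passed in every alternative that measured them other than the covariate; FOXM1, PLK1, AURKB, BUB1, CKAP2, ANLN and SMC2 were each lost at least once. Signs changed for genes near 0. ECT2 was at 0.012 under median centring, at 0.036 with the mean of its probe sets and from -0.059 to 0.034 with 1 sample left out. CENPA was at 0.062 after another quantile normalization, at 0.0028 with the covariate and from -0.064 to 2.8e-05 with 1 sample left out, and TTK was at 0.089 with the covariate. The cause was not tested. Probe sets near background limit the smallest signals.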

Other observations

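The mitosis genes varied together among samples of one clone, by less than they differed between the clones. Control sample 2 had the highest signal of its group at 29 of the 42 genes and control sample 1 the lowest at 28, while over all genes these places were held at 28.8% and 36.6%. In the shFRY group, sample 3 was highest at 29 of the 42 and sample 1 lowest at 28, against 37.1% and 35.3% over all genes. Measured from the control mean, the median of the 42 genes was -0.072, 0.081 and -0.0076 in the control samples and -0.49, -0.47 and -0.38 in the shFRY samples. The samples of a group differed in passage number, which the labels do not give for single samples. No test was made of these places.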
